A study of Mus musculus with 36 samples.

Results

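Single-strand breaks (SSBs) that lie next to an abasic (AP) site were described here in 6 tissues of 24-month-old male C57BL/6J mice. An autosomal SSB position was taken as AP-adjacent if the pooled AP list of the same tissue held a position on the same strand at an offset of -2 to +2 bases. This rule chose 41086 of the 5413694 autosomal SSB positions (0.759%). The share was 0.766% ± 0.128 (SD, n = 6 tissues), from 0.517% in liver to 0.875% in brain.

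The tissues were bone marrow, brain, heart, liver, sperm and PBMCs (the mononuclear cells of peripheral blood), all untreated. Each was sampled from 2 mice and profiled with SSiNGLe, which maps SSBs, and SSiNGLe-AP, which maps AP sites, so that 24 libraries were used. The labels give the SSB and AP libraries of a number as the same tissue sample, and the protocol text names only 2 animals for all tissues. Tissues therefore share animals, and the p-values below measure the spread between tissues of the same animals. Sperm DNA was isolated with another kit than DNA of the other 5 tissues, so that sperm and its kit cannot be told apart.

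AP sites arise when a base is lost from the sugar backbone, either spontaneously or when a DNA glycosylase removes a damaged base as the first step of base excision repair. The endonuclease APE1 then cuts the strand on the 5′ side of the AP site. DNA polymerase beta fills the gap and removes the sugar remnant, and DNA ligase III with XRCC1 seals the nick. An AP site and a nick beside it on the same strand are thus successive intermediates of this repair.

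The SSB libraries held 225011 to 1041983 positions with a median of 410489, and the AP libraries held 460719 to 963258 with a median of 739741. Pooled over both animals, the autosomal SSB positions ranged from 520333 in PBMC to 1458080 in heart, and the AP positions from 929166 in liver to 1748693 in PBMC. The number of AP-adjacent SSBs depends on both depths, so that the tissues are compared below by ratios. Each position was counted once, as its count was above 1 for at most 1.23% of the positions of a library.

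RefSeq promoter windows of GRCm38.p6 (250 bases before to 50 bases after a gene start) gave the bases around 399 AP-adjacent SSBs. Of those with more than 1 SSB count over the tissues, 7 are shown to make the geometry visible. One autosome was not considered for this display. Each run reads 5′ to 3′ on the strand of the SSB, and the capitals mark the SSB position, which is the 11th letter, and the AP position or positions beside it.
Mri1, chr8:84257392-84257412, strand +, SSB in bone marrow and liver: tcccaaggccGAgttctagct
Gm33862, chr11:3136830-3136850, strand +, SSB in bone marrow and brain: atagtttcccCAGatctaaag
Gm30991, chr3:85058333-85058353, strand -, SSB in sperm: gatttgtgccCaGctggaggc
Abhd11os, chr5:135013275-135013295, strand +, SSB in heart: aattcttgccGTctgtcgcct
Gm33862, chr11:3137025-3137045, strand +, SSB in brain: gccgcctgtcCcAgctggaat
Fam131a, chr16:20695036-20695056, strand +, SSB in PBMC: gagctgggccTGaagcagttc
Rfc4, chr16:23127719-23127739, strand -, SSB in bone marrow: cctttcgccgCcGttctgtgg
In every one of these 7 runs the AP position lies 3′ of the SSB position, by 1 base, by 2 bases or both. They do not stand for all 399, of which 125 had an AP position at +1, 82 at +2, 97 at 0 and 103 at -1 or -2. Mri1 (an enzyme of methionine salvage) and the first Gm33862 nucleotide were AP-adjacent in 2 tissues, and the others in 1. The Mri1 nucleotide lies at -78 from the annotated start, on the strand opposite to the gene, and the Rfc4 nucleotide 1 base after the start of this replication factor C subunit, on the gene's strand. Both Gm33862 nucleotides lie in a stretch of chromosome 11 that is rich in SSB and AP positions, described below.

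The first question was at which offset AP positions lie from SSBs. Offsets are AP minus SSB position, read 5′ to 3′ on the strand given in the files, so that +1 means an AP position 1 base further 3′. The sources do not say whether a listed position is the base before or after the break, so that an offset of 1 base depends on this convention. The offset of +1 held more AP-adjacent SSBs than any of the other 4 offsets in each tissue. It held 2198 SSBs in bone marrow, 3370 in brain, 4229 in heart, 2037 in liver, 1415 in PBMC and 1777 in sperm. The mean number per offset at 50 to 60 bases on either side was 548, 760, 1048.5, 475, 440 and 478 in the same order. The number at +1 was thus 3.95 ± 0.437 (SD, n = 6) times the far level, with PBMC lowest at 3.21 and brain highest at 4.43. The AP-adjacent SSBs were selected on these same-strand counts, which are therefore given without a test.

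The other offsets were not symmetric around 0. The ratio to the far level was 2.32 ± 0.189 at 0 and 2.56 ± 0.241 at +2, but only 1.27 ± 0.0978 at -1 and 1.20 ± 0.0753 at -2. Just outside the rule it was 1.59 ± 0.0933 at +3 and 1.33 ± 0.1 at -3. It was still 1.23 ± 0.0322 at +12 and 1.22 ± 0.0357 at -12, so that the 5′ side of the window stood no higher than the neighbouring offsets. Taken over -2 to +2, the number per offset was 2.26 ± 0.189 times the far level, a value called the near/far ratio from here on. It was 2.21 in bone marrow, 2.47 in brain, 2.29 in heart, 2.44 in liver, 1.96 in PBMC and 2.19 in sperm. Between 48.9% (PBMC) and 59.5% (brain) of the near number was above the far level. Of the AP-adjacent SSBs, 1338 (3.26%) had AP positions at more than 1 of the 5 offsets.

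**Figure D1:**
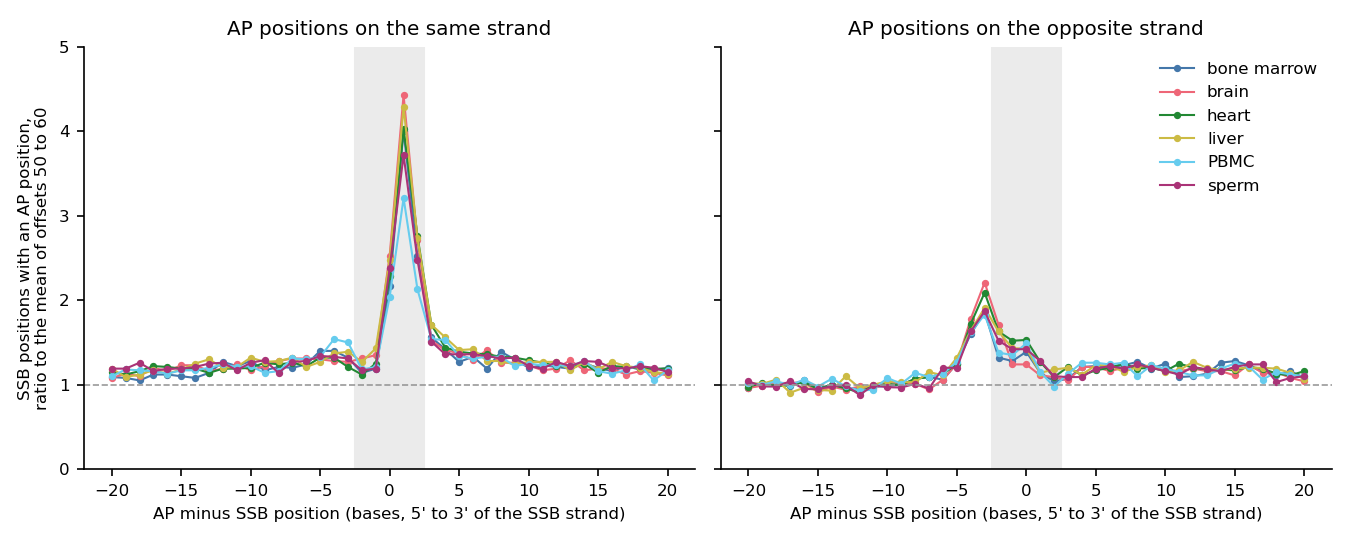
SSB positions with an AP position at each offset (x axis, bases) in 6 tissues, as a ratio to the mean of offsets 50 to 60 (y axis), for AP positions on the same strand (left) and on the opposite strand (right). The grey band marks offsets -2 to +2. On the same strand all tissues peak at +1 (mean ratio 3.95), and on the opposite strand at -3 (mean ratio 1.96).

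AP positions on the opposite strand were not used by the rule. Their near/far ratio over -2 to +2 was 1.32 ± 0.0666 (SD, n = 6), from 1.23 in bone marrow to 1.41 in heart. The mean log2 ratio was 0.40 ± 0.07 and above 0 in 6 of 6 tissues (two-sided exact sign-flip test over tissues, p = 0.0312, the smallest that 6 tissues allow). The highest opposite-strand ratio fell outside the window. It was 1.96 ± 0.154 at -3 and 1.66 ± 0.0689 at -4, against 1.42 ± 0.101 at 0, 1.18 ± 0.0758 at +1 and 1.08 ± 0.0694 at +2. Further out it was still 1.18 ± 0.064 at +12, and 0.936 ± 0.0378 at -12. The 3′ side of the window thus stood no higher than offsets further 3′.

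The second question was whether AP positions of the same tissue lie closer to its SSBs than those of other tissues. They did not stand apart. Bone marrow SSBs had a near/far ratio of 2.21 with bone marrow AP positions and 2.18 to 2.35 with those of the 5 other tissues. For brain it was 2.47 against 2.36 to 2.46, and for heart 2.29 against 2.21 to 2.28. For liver it was 2.44 against 2.45 to 2.53, for PBMC 1.96 against 1.96 to 2.09, and for sperm 2.19 against 2.13 to 2.17. The own ratio was the highest in brain, heart and sperm and the lowest in liver and PBMC. The mean log2 difference between the own and the other tissues was -0.00097 ± 0.035, with 3 of 6 tissues above 0.

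The ratio varied with the tissue of the SSBs more than with that of the AP positions. Its geometric mean over the 6 AP lists was 2.01 for SSBs of PBMC, 2.16 for sperm, 2.24 for bone marrow, 2.25 for heart, 2.42 for brain and 2.47 for liver. Over the 6 SSB lists it was 2.22 (liver) to 2.30 (heart) for the AP lists.

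**Figure D2:**
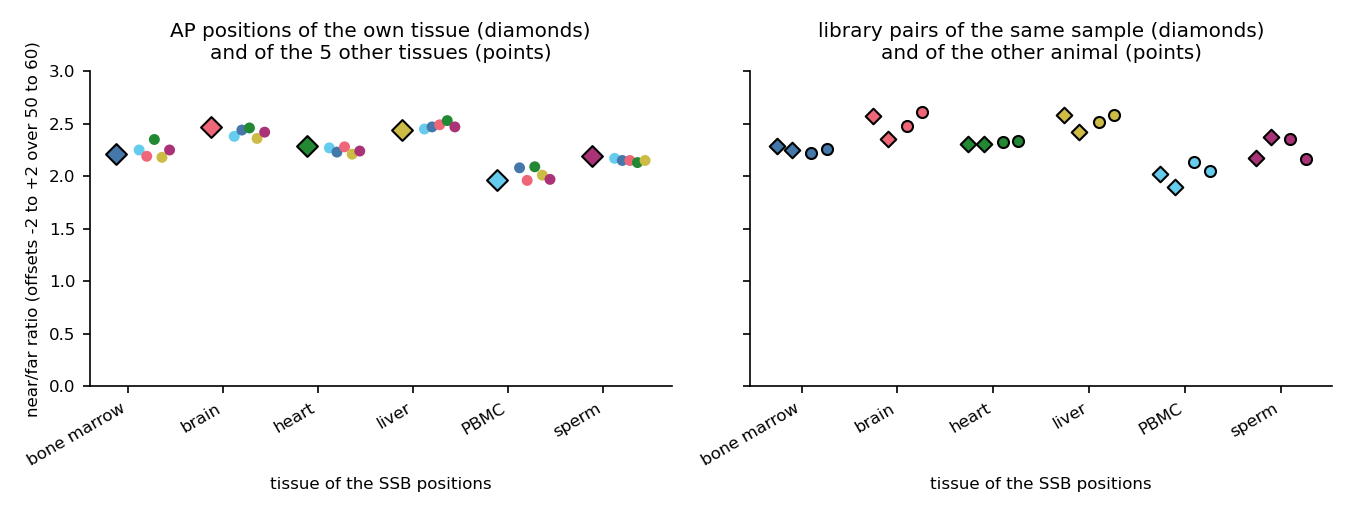
Near/far ratio (y axis) by the tissue of the SSB positions (x axis). Left, the pooled lists, with AP positions of the own tissue (diamonds) and of the 5 other tissues (points, in the colour of the AP tissue). Right, single libraries, paired with the AP library of the same sample (diamonds) or of the other animal (points). Own and other values overlap, at 1.96 to 2.53 on the left and 1.90 to 2.61 on the right.

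The same comparison was made within tissues between animals, since the labels give the SSB and AP libraries of a number as the same tissue sample. The 12 pairs of libraries from the same sample had a near/far ratio of 2.29 ± 0.197, and the 12 pairs from different animals 2.34 ± 0.182. The log2 difference was 0.02 in bone marrow, -0.05 in brain, -0.02 in heart, -0.03 in liver, -0.09 in PBMC and 0.0082 in sperm. Its mean was -0.03 ± 0.04 and it was above 0 in 2 of 6 tissues (two-sided exact sign-flip test over tissues, p = 0.188). A same-sample excess was not detected, and the mean lay slightly below 0.

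Lists of the same assay gave a scale for these ratios. AP positions of the 2 animals of a tissue coincided (offset 0) at 7.04 ± 0.784 times the far level, and AP positions of different tissues at 7.08 ± 0.419 (n = 15 tissue pairs). SSB positions coincided at 4.74 ± 0.964 times between animals and 3.75 ± 0.319 times between tissues. One base to either side the ratio was 3.64 to 3.67 between AP libraries of the 2 animals and 2.75 to 3.04 between SSB libraries. The SSB to AP ratio of 3.95 at +1 thus lay within the range of the ratios that the same assay gave between separate samples. Lists of the same assay had their highest ratio at 0, unlike the SSB to AP profile.

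The bases around the positions were read in the 31396 autosomal promoter windows, as a description without a test. These windows held 54867 other SSB positions and 58864 AP positions. The base 5′ of an SSB (-1) was C for 55.3% of the other SSBs and A for 4.38%. Among AP positions it was the base at -2 that was C for 53.1% and A for 4.13%. The AP position itself was A for 38.6%, G for 36.2%, C for 16% and T for 9.26%, and the base 3′ of the other SSBs (+1) was A for 26.7% and T for 15.6%. Set against each other at every shift from -6 to +6, the base shares of the other SSBs (positions -3 to +3) and of AP positions differed least at +1. The mean absolute difference was 4.57 percentage points there, against 6.85 at 0, 7.83 at +2, 8.80 at -1 and 5.65 at -6, the next lowest. Pearson's r over the 28 base shares was 0.871 at +1, 0.613 at 0, 0.647 at +2 and 0.754 at -6. On the opposite strand, where pairs peaked at -3, the difference was lowest at -6 (5.91 points) and 6.71 points at -3. These shares come from the same windows and share their base composition, in which A and T make up 46.4%. On the same strand, the offset with most AP-adjacent SSBs was also the offset at which the base patterns of the assays were most alike in these windows. The part of either pattern in the other was not tested.

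AP-adjacent SSBs carried both patterns. They were chosen by an AP position beside them, so that the AP pattern in them follows from that choice. This holds for A at +1 and for the shares by the base at +1 given below. It also bears on C at -1. With an AP position at +1, the SSB's -1 is the AP position's -2, which was C for 53.1% and T for 6.32% of all AP positions. The differences below are therefore tied to the rule and are given as a description. Of the 399 in the windows, C stood at -1 in 62.2%, against 51.5% of the 897 SSBs with an AP position 50 to 60 bases away. At the SSB itself T was found in 11%, against 21.5%. Of the 125 SSBs with an AP position at +1, C stood at -1 in 70.4%, and the AP position was A in 52.8% and T in 4.80%. The share of SSBs that were AP-adjacent was 0.906% where the base at +1 was A (95% Wilson interval 0.766 to 1.07), 0.841% for G (0.712 to 0.992), 0.530% for C (0.427 to 0.657) and 0.524% for T (0.392 to 0.7). Intervals cover counting error only. Over the tissues, C at -1 ranged from 58.1% to 69.2% in AP-adjacent SSBs from 43.8% to 58.4% in the SSBs with an AP position 50 to 60 bases away, and from 46.7% to 57.7% in the other SSBs.

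To ask where AP-adjacent SSBs lie, they were compared with 71670 SSBs that had an AP position 50 to 60 bases away on the same strand and none within 10 bases. Its AP positions lie at the far distance used above. A set of 10 measures was tested by two-sided exact sign flips over the 6 tissues, where the smallest raw p is 0.0312. Benjamini-Hochberg adjustment was made over the 10. Of these 10, 9 had an adjusted p of 0.0347, and the gene end measure missed the threshold. Some of the 9 are tied to the choice of sets, so that this number is not a tally of independent results. The measure of AP positions of another tissue is tied to the rule, since AP positions coincide between tissues as given above. Both density measures are tied to the comparison set, which leaves out SSBs with an AP position within 10 bases and thereby SSBs of AP-dense places. The measure of AP positions of another tissue and both density measures are described without a test. The tests of SSB recurrence, SSB count and opposite-strand AP positions use the same comparison set. How far its choice bears on them was not tested.

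AP-adjacent SSBs recurred. AP positions of another tissue lay within 2 bases of 15.8% ± 1.49 (SD, n = 6) of them, against 5.85% ± 1.05 of the comparison set and 3.48% ± 0.448 of all other SSBs (higher in 6 of 6 tissues). The same nucleotide was an SSB of another tissue for 5.96% ± 0.832, against 1.93% ± 0.452 and 0.933% ± 0.0885 (6 of 6, exact test, adjusted p = 0.0347). Within the tissue, 2.02% ± 0.585 had an SSB count above 1, against 0.815% ± 0.368 (6 of 6, exact test, adjusted p = 0.0347). Without nucleotides that recur as SSBs in another tissue it was 0.989% against 0.705% (5 of 6, exact test, adjusted p = 0.0781). Without the 427 densest windows of 10 kb, described next, the first of these shares was 9.20% against 4.03%, the second 2.07% against 0.982% and the third 1.09% against 0.627%, each still higher in 6 of 6 tissues.

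Part of the AP-adjacent SSBs lay in dense stretches of the genome. The number of other SSB positions at 61 to 1000 bases on either side was 10.1 ± 4.95 around them and 4.53 ± 2.74 around the comparison set, and the number of AP positions was 9.64 ± 2.51 against 4.70 ± 0.511. Both were higher in 6 of 6 tissues, a difference tied to how the comparison set was chosen and given without a test. Without the 10 kb windows in the top 0.1% for SSB or AP positions, the SSB number was 1.21 against 1.29 and the AP number 1.92 against 2.05. These windows were left out for their density itself, so that no test is given for that difference. Those 427 windows held 9.91% of the AP-adjacent SSBs, 4.73% of the comparison set and 0.934% of all SSB positions. An AP position on the opposite strand lay within 2 bases of 1.93% ± 0.318 against 0.933% ± 0.125 (6 of 6, exact test, adjusted p = 0.0347), but without these windows of 0.416% against 0.447% (exact test, adjusted p = 0.656). Inside the windows 8.25% ± 1.31 of the SSBs were AP-adjacent, and outside 0.696% ± 0.118. The near/far ratio was 1.96 ± 0.146 inside and 2.31 ± 0.201 outside, so that the excess over the far level was not confined to dense windows. By offset, the SSB number at 61 to 1000 bases was 17.6 ± 9.91 for AP-adjacent SSBs at -1 and 15.2 ± 8.83 at -2, and 9.95 ± 4.33 at +1. The offsets with the lowest ratio to the far level thus had the highest mean local density, with SDs that overlap.

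Genes held a smaller share of AP-adjacent SSBs than of the comparison set. Within genes lay 62.5% ± 0.987 against 65.8% ± 1.13 (lower in 6 of 6 tissues, exact sign-flip test, adjusted p = 0.0347), while all other SSBs had 61.5% ± 1.06. The share was thus below that of one reference set and above the mean of the other. The near/far ratio was 2.19 ± 0.188 within genes and 2.38 ± 0.202 outside.

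Within 1 kb of a gene start lay 5.10% ± 0.825 of the AP-adjacent SSBs and 5.78% ± 0.917 of the comparison set (lower in 6 of 6 tissues, exact sign-flip test, adjusted p = 0.0347). Each of liver replicate 2, PBMC replicate 1 and sperm replicate 1 was needed for this call, since without it the difference was -0.499, -0.660 and -0.502 percentage points with adjusted p = 0.0694, 0.0694 and 0.104 (exact test). The call also did not hold without the densest 10 kb windows, at 5.28% against 5.78% (exact test, adjusted p = 0.0781). All other SSBs had 4.93% ± 0.837 at gene starts, so the share of AP-adjacent SSBs lay above their mean. Within 1 kb of a gene end lay 3.71% ± 0.521 and 3.92% ± 0.241 (lower in 4 of 6 tissues, exact test, adjusted p = 0.344), while all other SSBs had 3.23% ± 0.192. In bone marrow the gene end share was 4.67% against 4.21%, and in liver 3.18% against 4.05%, so that tissues lay on either side. The near/far ratio was 2.05 ± 0.126 at gene starts and 2.05 ± 0.316 at gene ends.

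For genes whose strand is given in the promoter table, 51.9% ± 1.79 of the AP-adjacent SSBs lay on the coding strand, against 53.8% ± 1.43 of the comparison set and 54.0% ± 1.01 of all other SSBs (lower than the comparison set in 6 of 6 tissues, exact sign-flip test, adjusted p = 0.0347). Without heart replicate 2 the difference was -1.49 percentage points (exact test, adjusted p = 0.104). The values were 50.8% against 52.6% in bone marrow, 51.0% against 52.9% in brain and 52.1% against 53.2% in heart. They were 49.8% against 53.0% in liver, 52.6% against 55.1% in PBMC and 54.9% against 56.1% in sperm. Sperm was highest in both sets. The near/far ratio was 2.14 ± 0.201 on the coding strand and 2.31 ± 0.208 on the other strand of genes.

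**Figure D3:**
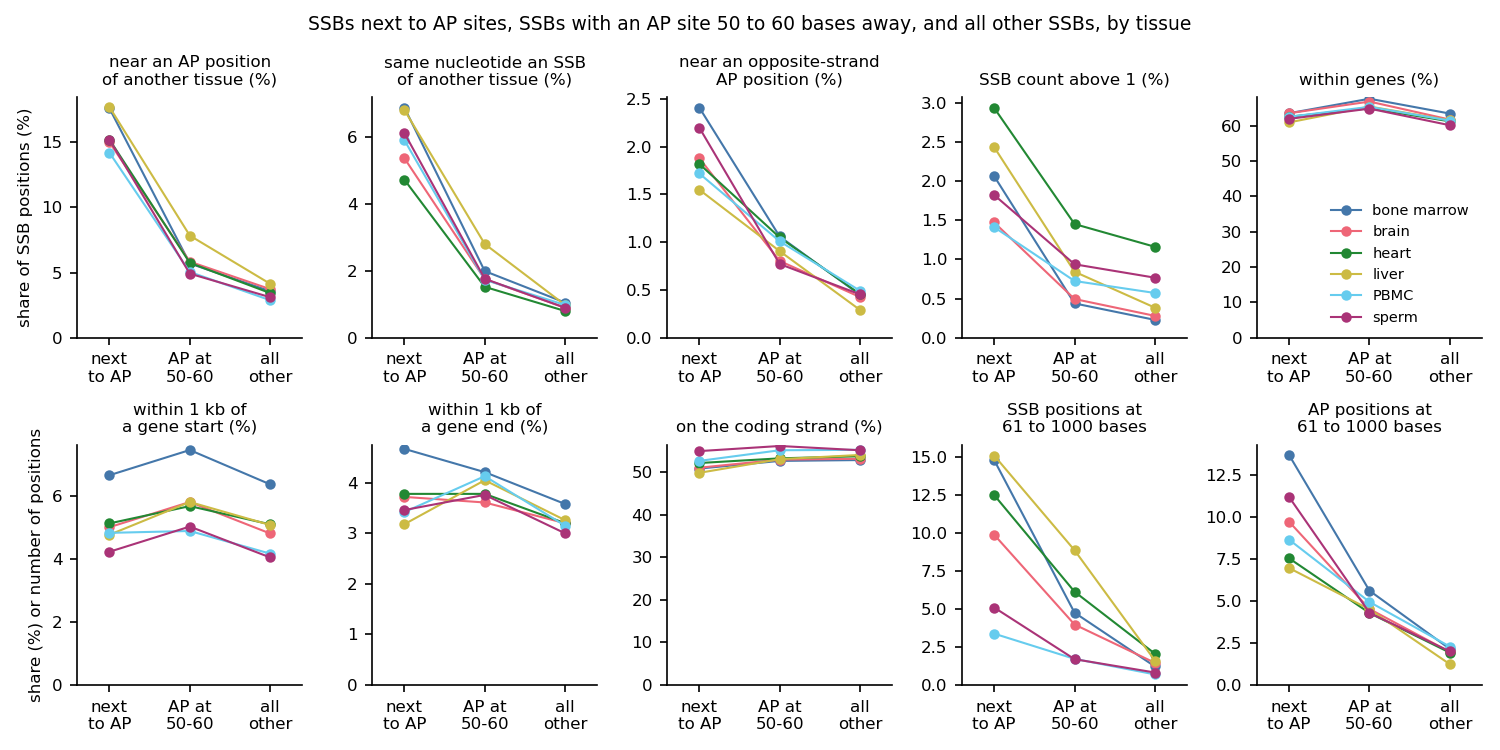
The 10 measures (one panel each, y axis in percent or number of positions) for AP-adjacent SSBs, for SSBs with an AP position 50 to 60 bases away and for all other SSBs (x axis). Lines join the values of a tissue. The recurrence and density measures fall from left to right in every tissue, while the gene measures differ by a few percentage points, as in 62.5%, 65.8% and 61.5% within genes.

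The densest sites were few. Of 32771 windows of 10 kb with an AP-adjacent SSB, 28746 held 1 and 81 held 5 or more. The window at chr17:39840000-39849999, where RefSeq places the ribosomal RNA related sequence Rn18s-rs5 and the long noncoding RNA AY036118, held 1077 of its 3553 SSBs next to an AP site (30.3%). By tissue the number was 243 in bone marrow, 226 in brain, 249 in heart, 188 in liver, 52 in PBMC and 119 in sperm. A window without a gene at chr15:75080000-75089999 held 343 of 549 (62.5%), at 54.0% to 71.6% by tissue. The adjacent windows over Sfi1 and Pisd-ps1 at chr11:3120000-3199999 held 94 to 288 each. Reads of near-identical copies cannot be assigned to one copy with certainty, and their part in these counts was not tested.

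**Figure D4:**
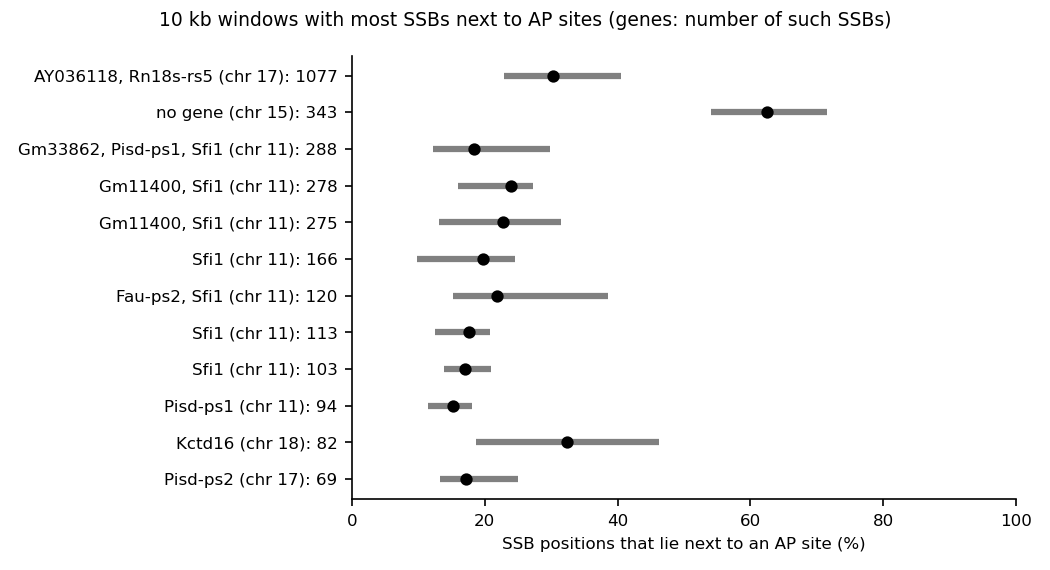
The 10 kb windows with most AP-adjacent SSBs (y axis, with the genes in them, the chromosome and the number of AP-adjacent SSBs) and the share of their SSBs that are AP-adjacent (x axis, percent). Points give the share over all tissues and bars the lowest to the highest tissue. The gene-free window on chromosome 15 is highest at 62.5%, and the 12 windows together hold 7.32% of all AP-adjacent SSBs.

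By gene, Sfi1 (a centrin-binding protein of the centrosome, chr11:3131850-3203347) held most AP-adjacent SSBs, with 1294 of 6282 SSB positions (20.6%). Gm11400, a pseudogene within its span, held 103 of 368 (28%), and Pisd-ps1, a transcribed pseudogene of phosphatidylserine decarboxylase beside it, 137 of 890 (15.4%). Its relative Pisd-ps2 on chromosome 17 held 65 of 470 (13.8%). AY036118 held 119 of 520 (22.9%). E030030I06Rik on chromosome 10 had the largest share among genes with at least 100 SSB positions, 45 of 148 (30.4%). Kctd16, an auxiliary subunit of GABA-B receptors on chromosome 18, held 89 of 831 (10.7%), of which 82 lay in 1 window.

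A group on chromosome 1 followed, with Gm38510 at 80 of 1545 (5.18%), Sp140 at 75 of 974 (7.70%), C130026I21Rik at 59 of 947 (6.23%), Mroh2a at 53 of 1035 (5.12%) and Sp110 at 50 of 754 (6.63%). Sp140 and Sp110 encode related nuclear body proteins of immune cells. C130026I21Rik lies within the span of Gm38510, and the spans of Sp110 and Sp140 overlap. SSBs in a shared stretch are counted for each gene. The remaining genes of large share were Gm40034 (19.0%, 23 SSBs), LOC100504180 (16%, 31), Gm33862 (12.8%, 20) and Duxf3 of the Dux double homeobox family (12.1%, 14). Of these, Gm33862 lies within the span of Sfi1. Against these, the median share over the 8426 genes with at least 100 SSB positions was 0.676%, with quartiles of 0.172% and 0.997%. Of 47042 autosomal genes 11540 held an AP-adjacent SSB, and 294 held 10 or more. The share was 0.775% in protein-coding genes, 0.744% in lncRNA genes, 1.29% in pseudogenes and 0.650% in the 225 genes over 500 kb.

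Genes of base excision repair did not stand out as sites. The 23 autosomal genes of a list of 24 held 11 AP-adjacent SSBs among 1746 SSB positions, a share of 0.630% (95% Wilson interval 0.352 to 1.12), and the 0.779% over all autosomal genes lies within it. Neil3, a glycosylase, held 3 of 112, and 8 genes held 1 each, among them Polb (DNA polymerase beta, 1 of 86), Ung (uracil glycosylase, 1 of 66) and Lig3 (1 of 101). The remaining 14 held none. Apex1, the gene of APE1, had 15 SSB positions, of which 0 were AP-adjacent, which allows a share of up to 20%, and Xrcc1 had 0 of 114, which allows up to 2.63%. Differences between single genes of this length were not detectable at this depth.

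Few nucleotides were AP-adjacent in more than 1 tissue, in lists where few SSB nucleotides recurred at all. The same nucleotide was an SSB of another tissue for 0.933% ± 0.0885 (SD, n = 6) of all other SSBs. For AP-adjacent SSBs it was 5.96% ± 0.832. The counts below also need an AP position in each tissue, and no matching share over all SSBs was computed. Of the nucleotides chosen, 39953 were AP-adjacent in 1 tissue, 317 in 2, 89 in 3, 22 in 4, 6 in 5 and 19 in all 6. The 19 lay at 5 places, 4 of them outside genes. They were 6 nucleotides at chr2:98662232-98667335, 4 at chr7:104428093-104428096 in Trim30a (a ubiquitin ligase family gene of immune cells), 2 at chr10:72297176-72297177, 2 at chr14:106331466-106331467 and 5 at chr15:75086443-75086940. The nucleotide at position 98667333 of chromosome 2 had SSB counts of 73 in bone marrow, 82 in brain, 106 in heart, 101 in liver, 139 in PBMC and 86 in sperm, where nearly all SSB positions had a count of 1. In Trim30a, position 104428093 had counts of 46, 36, 68, 43, 70 and 25 in the same order, and its 3′ neighbour 30, 15, 43, 25, 38 and 19. High counts were also found on chromosome 10, as at position 72297177 with 84, 54, 88, 78, 70 and 64. The nucleotides on chromosome 15 shared by all 6 tissues had low counts, as position 75086443 with 3, 1, 2, 1, 1 and 1.

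Across chromosomes the share varied little once dense windows were set aside. It was 1.22% on chromosome 17 and 1.16% on chromosome 11, but without those windows it ranged over the 19 autosomes from 0.654% ± 0.0936 (SD, n = 6 tissues) on chromosome 3 to 0.734% ± 0.146 on chromosome 9.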

How the data were processed

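The authors deposited, for each library, raw counts at single-nucleotide positions with their strand, with no normalization and no pooling. The submitters' notes name mm10 and GRCm38 as builds, and the aligner and filters are not given in the sources used here. Nor is it given whether the strand in the lists is the broken strand, or whether a position is the base before or after the break. Directions (5′, 3′, coding) and offsets therefore hold for strand and position as listed. Here the 2 libraries of a tissue and assay were pooled and each autosomal position was counted once. Pairs at every offset were counted by strand with Python 3.11.15, numpy 2.4.6, pandas 2.3.3 and scipy 1.17.1, and figures drawn with matplotlib 3.10.9. The counting was tested on simulated data with planted pairs. Genes were RefSeq spans of GRCm38.p6, which hold no exons. Their strand, known for 25748 of 47042 autosomal genes, and starts came from the promoter table, whose overlapping windows gave no conflicting base at 768043 shared positions.

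Tests were two-sided exact sign-flip tests over tissue values with a threshold of 0.05. Same-numbered SSB and AP libraries are paired by the labels, as the same sample. Genes named were the 12 with most AP-adjacent SSBs, the 12 with the largest share among those with at least 100 SSB positions, those at nucleotides shared by most tissues, and examples of the repair list. The members, lists and measures were chosen with earlier results of these data known. The added alternative of offset +1 only was chosen after seeing the data. RNA profiles were not analysed here.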

Additional observations from a re-analysis of the deposited data

Results flagged for a closer look

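Heart and PBMC moved in opposite directions in the comparison of the own with other tissues. With single libraries of the same animal number, the log2 difference of the near/far ratio (own minus the mean of the other tissues) was 0.0310 and 0.0283 in heart replicates 1 and 2, and -0.137 and -0.0959 in PBMC replicates 1 and 2. The difference between these tissues was not tested, and all 4 values are small beside the log2 near/far ratio of 1.17 itself.

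Chromosome X lies outside the autosomal rule and also held an excess. Its near/far ratio was 2.76 (mean of 6 tissues, SD 0.0903, from 2.67 to 2.93), above the highest autosomal tissue value of 2.47 in each tissue, a difference that was not tested, with 329 pairs at offsets -2 to +2 and 526 at 50 to 60. At +1 the ratio was 4.97 ± 1.36. The number of pairs per tissue, 28 to 92 near ones, limits its precision.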

How the results depend on the processing

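Of 355 recomputed values, 319 kept their direction and side of the threshold or, for the near/far ratio and the own minus other difference, which have no test, moved by less than the SD over samples. The latter, close to 0, took either sign (-0.0142 to 0.0109). The log2 near/far ratio of 1.17 became 1.32 over offsets -1 to +1 and 0.841 over -5 to +5. Over -5 to +5 the same-sample difference was -0.0324, below 0 in 6 of 6 tissues (exact sign-flip test, p = 0.0312), where its p was otherwise 0.0938 to 1. The opposite-strand value, 0.396, was 0.414, 0.404, 0.376, 0.385, 0.406 and 0.389 without bone marrow, brain, heart, liver, PBMC and sperm in turn, each with an exact p of 0.0625, the smallest that 5 tissues allow. Against all other SSBs the differences within genes, at gene starts and at gene ends turned positive, at 0.938, 0.173 and 0.476 percentage points. At offset 0 alone they were -0.255 at gene starts, 0.0602 at gene ends and -2.64 on the coding strand, and at +1 alone -1.83 on the coding strand. Without dense windows the differences from the comparison set were -0.0305 for the share with an opposite-strand AP position and -0.499 at gene starts. They were -0.0707 for SSB and -0.122 for AP density. The opposite-strand log2 value was 0.416 there, above 0 in 6 of 6 tissues (exact sign-flip test, p = 0.0312). Within 100 bases the difference was -0.206 at starts and 0.0197 at ends, and within 5 kb 0.308 at ends. Without nucleotides that recur as SSBs, recurrence is 0 by construction, and count above 1 and gene starts had an exact p of 0.0625 each. The opposite-strand share, the share within genes and the coding-strand share stayed at an exact p of 0.0312, with an adjusted p of 0.0521. The differences were then 7.07 (AP of another tissue), 0.410 (share with an opposite-strand AP position), 0.285 (count above 1), -2.28 (genes), -0.559 (starts), -2.03 (coding strand), 2.31 (SSB density) and 2.20 (AP density). Those for AP of another tissue and for both densities are given without a test, as above. Leaving out each sample gave -0.892 to -0.499 at gene starts and -2.47 to -1.49 on the coding strand. The cause of these changes was not tested.

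With the replicate block (12 same-numbered library pairs) the log2 near/far ratio was 1.19, the own minus other tissue difference -0.0134, the opposite-strand value 0.385 and the same-sample difference -0.0274, and no call changed. The block took the 12 pairs as units, although pairs of a tissue are not independent and all tissues share the same animals. Unchanged calls are therefore no independent check. The density differences were 2.43 for SSB and 2.16 for AP positions. Depth limits single genes and the promoter windows most.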
